A study of Mus musculus with 9 samples.

Results

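Complement was followed here through 9 genes of the lung transcriptome: the C1q chains C1qa, C1qb and C1qc, the components C2, C3, C4b and Cfb, and the receptors C3ar1 and C5ar1. They were chosen by name, with earlier results of these data known, from the 18875 genes of a table. It covers whole lungs of mice given fine particulate matter (PM2.5) or phosphate-buffered saline (PBS). All 9 are in the table, and all 9 had at least 1 TPM in at least 3 libraries, which was the condition for a test. C3ar1 met it only through the lungs given PM2.5, since it stayed under 1 TPM in every PBS library. Counts below are therefore given both over all 9 genes and over the other 8.

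Complement is a set of plasma and tissue proteins that mark particles, microbes and dying cells and call in white cells. In the classical pathway C1q binds the target, and its partner proteases cut C4 and C2, which together form an enzyme that cuts C3. In the alternative pathway factor B (Cfb), the counterpart of C2, joins C3b to form another such enzyme and so amplifies the deposit of C3 fragments. Small fragments released from C3 and C5 act on the receptors encoded by C3ar1 and C5ar1. The liver makes most plasma complement, while C1q is made largely by macrophages and related cells. In the lung, epithelial cells and macrophages are known to make C3 and other components locally.

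The mice were wild type (WT) BALB/c animals, and RNA came from whole lung. The long-term PM2.5 group received 6 intranasal doses of 10 mg/kg at intervals of 3 days, and the short-term PM2.5 group received 1 such dose. The control group is labelled as long-term exposure to PBS, so the short-term group has no PBS group of its own duration. Each group has 3 libraries, 9 in all. The labels give no age, no time from the last dose to collection, and no statement that each library is a mouse of its own, so p-values measure the spread between these samples, which may be technical.

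Values are in TPM, a measure of transcript abundance in which reads are divided by transcript length and scaled to the same total in every library. Depth is therefore unknown, and no counting error is given. Defining lung genes were abundant in every library, among them Sftpc of alveolar type 2 cells, with at least 19628 TPM, and Scgb1a1 of club cells, with at least 106890 TPM. The short-term libraries stood apart from the other 6. The number of genes with 1 TPM or more was 12560, 13414 and 13175 in them and 13534 to 13930 elsewhere, and genes with long transcripts read lower in them. With genes cut by transcript length into 5 equal bins and set against the PBS mean, the median log2 value of the longest bin minus that of the shortest was -1.37, -0.61 and -0.84 in short-term replicates 1, 2 and 3. In the long-term libraries it lay between -0.18 and -0.11, and in the PBS libraries between -0.05 and 0.04. The median log2 fold change of all tested genes was 0.03 in long-term against PBS lungs, -0.34 in short-term against PBS lungs and 0.41 in long-term against short-term lungs. For the complement genes, a comparison with the short-term group is given with the value corrected for transcript length and GC content where the correction changes a call or a direction or moves the value by over 1.5 times. In whole lung, a change in the number of cells of a type and a change in RNA per cell cannot be told apart.

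Transcripts of C1q, C3, Cfb, C4b and C3ar1 rose in lungs given long-term PM2.5, and those of C1q, C3, Cfb, C3ar1 and C5ar1 rose in lungs given short-term PM2.5. In the long-term lungs the mean TPM of those genes was between 1.69 times the PBS mean (C4b) and 4.82 times it (C3ar1). In the short-term lungs the ratio of means was largest for Cfb, at 5.22, and stood at 3.61 for C3 and at 2.42 for C5ar1. C2 had no called difference in any comparison. C3, Cfb and C5ar1 were lower in long-term than in short-term lungs.

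By limma on log2(TPM + 1) with an adjusted p under 0.05, 7 of the 9 genes were higher and 0 were lower in long-term PM2.5 than in PBS lungs, where 9.51% of all 13991 tested genes were higher and 1.72% lower. Without C3ar1 it was 6 of 8, with a median log2 fold change of 1.13 over those 8. In short-term PM2.5 against PBS lungs 7 of the 9 were again higher and 0 were lower, against 11.7% of all tested genes higher and 40.3% lower. Without C3ar1 this was also 6 of 8, with a median of 1.03. Both comparisons use the same 3 PBS libraries. In long-term against short-term PM2.5 lungs 1 gene was higher, where 43.4% of all tested genes were, and 3 were lower, where 7.08% were. The median over the 8 genes without C3ar1 was 0.26, against 0.41 over all tested genes.

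**Figure D1:**
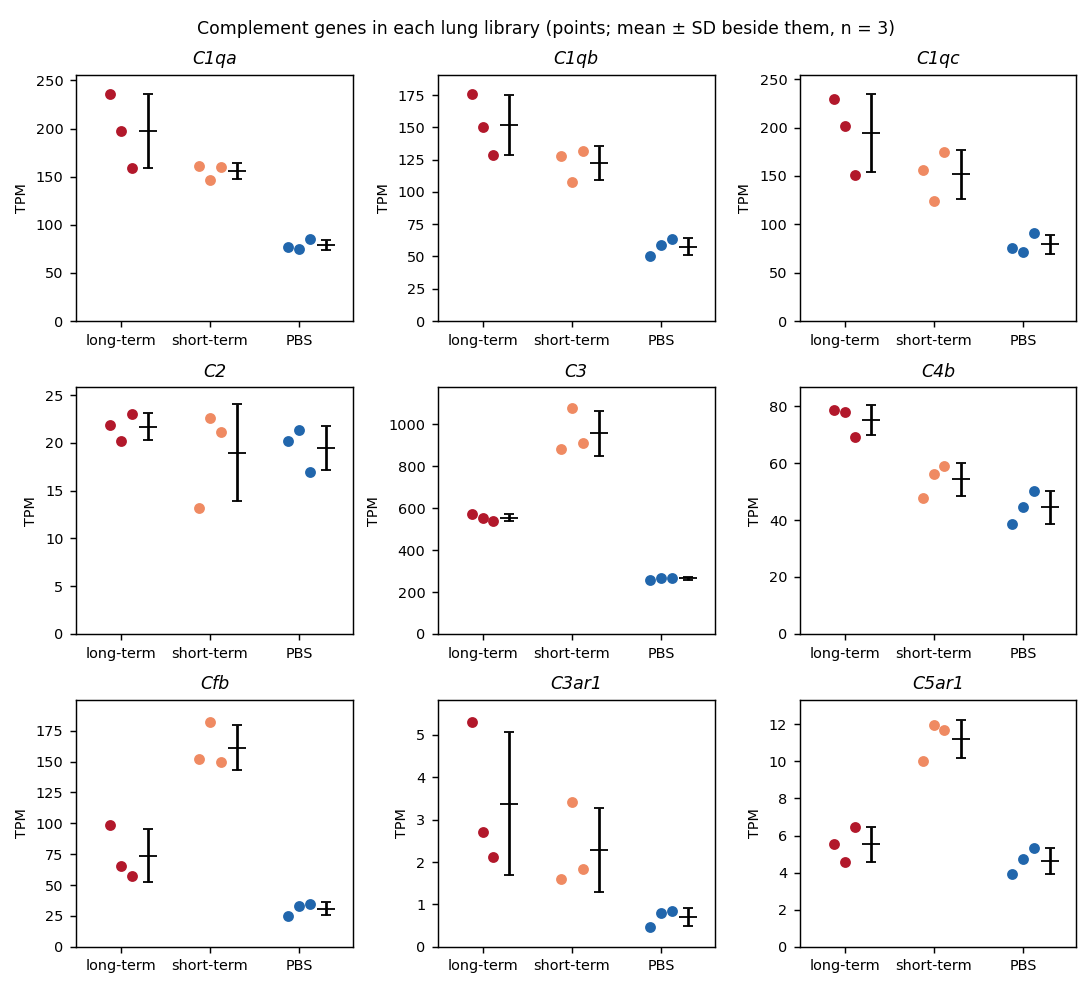
TPM of the 9 complement genes in each library, on an axis of its own for each gene, with long-term PM2.5, short-term PM2.5 and PBS libraries from left to right and a bar at each group mean with its SD (n = 3). The long-term and short-term points of C1qa, C1qb, C1qc, C3, Cfb and C3ar1 all lie above the PBS points, those of C2 overlap throughout, and those of C5ar1 are set apart only in the short-term group.

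The C1q chains sit side by side on chromosome 4 and encode the A, B and C chains of 1 protein. Positions are those of the RefSeq annotation of GRCm38.p6. C1qa (gene 12259) lies at 136895916 to 136898844, C1qc (gene 12262) at 136889801 to 136892936 and C1qb (gene 12260) at 136880126 to 136886200, so the cluster spans 18719 bases with no other annotated gene inside it. Promoter windows, 250 bases before to 50 bases after the start, were at hand for 5 of the 9 genes (C1qb, C1qc, C3, C3ar1 and C5ar1). The windows of C1qb (chr4:136886151-136886450) and C1qc (chr4:136892865-136893164) are shown because these neighbours moved together. Both are on the minus strand of GRCm38.p6, from RefSeq, and are written 5′ to 3′, with motif matches in capitals.
C1qb: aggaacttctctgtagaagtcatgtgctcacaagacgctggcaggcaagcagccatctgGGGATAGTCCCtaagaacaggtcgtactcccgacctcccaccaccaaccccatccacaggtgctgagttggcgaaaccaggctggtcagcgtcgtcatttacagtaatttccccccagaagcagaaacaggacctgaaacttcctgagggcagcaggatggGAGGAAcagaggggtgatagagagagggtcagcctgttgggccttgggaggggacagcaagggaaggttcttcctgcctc
C1qc: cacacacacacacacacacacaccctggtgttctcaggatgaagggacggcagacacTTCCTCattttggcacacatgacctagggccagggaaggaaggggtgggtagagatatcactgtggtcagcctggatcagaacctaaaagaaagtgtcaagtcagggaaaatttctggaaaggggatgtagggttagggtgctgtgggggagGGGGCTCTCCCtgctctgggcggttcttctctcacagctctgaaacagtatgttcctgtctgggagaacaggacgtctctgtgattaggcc
Each window holds 1 match to the kappa-B core GGGNNNNNCC and 1 to the PU.1 core GAGGAA, read on both strands, with overlapping matches of a motif joined. Of 32851 RefSeq promoter windows of the same length, 50.8% hold the kappa-B core and 28.3% the PU.1 core. The letters of an interferon-stimulated response element (ISRE, GAAANNGAAA, in 3.44% of windows), an AP-1 site (TGANTCA, in 7.81%) and a C/EBP site (TTGCNNAA, in 10.8%) are in neither. The motifs were picked with these windows in view, and a match describes the letters only.

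All 3 C1q chains rose in both PM2.5 groups. C1qa stood at 235.85, 196.98 and 159.41 TPM in long-term lungs and 161.14, 146.14 and 160.46 TPM in short-term lungs, against 77.13, 74.52 and 85.13 TPM in PBS lungs. Every PM2.5 library was above every PBS library, and the lowest long-term library was level with the short-term ones. Its log2 fold change was 1.30 ± 0.14 (SE) in long-term against PBS lungs (adjusted p = 0.000304) and 0.97 ± 0.14 in short-term against PBS lungs (adjusted p = 0.000678). C1qb had 175.64, 150.6 and 129.02 TPM in long-term and 127.49, 107.84 and 131.94 TPM in short-term lungs, against 50.45, 58.63 and 63.56 TPM in PBS lungs. Here too no PM2.5 library reached down to the PBS range. Its log2 fold changes were 1.38 ± 0.14 in long-term lungs (adjusted p = 0.000242) and 1.08 ± 0.14 in short-term lungs (adjusted p = 0.000480), each against PBS. C1qc had 229.97, 201.93 and 150.48 TPM in long-term and 156.37, 123.98 and 174.48 TPM in short-term lungs, against 75.2, 71.88 and 90.79 TPM in PBS lungs. Long-term and short-term libraries of C1qc interleaved, and both sets were clear of PBS. The log2 fold changes of C1qc were 1.27 ± 0.18 in long-term lungs (adjusted p = 0.0014) and 0.92 ± 0.18 in short-term lungs (adjusted p = 0.00266), each against PBS. These calls were kept when any 1 library was left out. After the length and GC correction the short-term values against PBS were 0.69 for C1qa, 0.79 for C1qb and 0.66 for C1qc, each still called.

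No C1q chain passed the test between long-term and short-term lungs, and the direction of the difference turned with the scaling. The log2 difference, long-term minus short-term, was 0.32 for C1qa (95% interval 0.01 to 0.63, adjusted p = 0.0779), 0.30 for C1qb (-0.02 to 0.62, adjusted p = 0.101) and 0.35 for C1qc (-0.05 to 0.74, adjusted p = 0.125). After the length and GC correction these became 0.48 (adjusted p = 0.0186), 0.43 (adjusted p = 0.0242) and 0.45 (adjusted p = 0.0419). With median-ratio scaling they were -0.07, -0.09 and -0.04, and under quantile normalization C1qa alone was called (0.37, adjusted p = 0.042). Without long-term replicate 3, the lowest of its group for all 3 chains, C1qa and C1qc were called higher in long-term lungs (adjusted p = 0.0273 and 0.0435).

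Ratios between the chains show how far they moved together. C1qa over C1qb was 1.34, 1.31 and 1.24 in long-term lungs and 1.26, 1.36 and 1.22 in short-term lungs, against 1.53, 1.27 and 1.34 in PBS lungs. C1qc over C1qb ran from 1.17 to 1.34 in long-term lungs and from 1.15 to 1.32 in short-term lungs, against 1.23 to 1.49 in PBS lungs. The groups overlapped in both ratios.

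C4b and C2 follow C1q in the classical pathway. C4b was called in long-term against PBS lungs and C2 was not, and these genes were not tested against each other. C4b (gene 12268, chromosome 17, 34728139 to 34743902) encodes C4, the protein whose larger fragment attaches to the target, and it rose in long-term lungs. It had 78.49, 77.88 and 69.21 TPM in long-term lungs and 47.72, 56.24 and 58.93 TPM in short-term lungs, against 38.65, 44.45 and 50.28 TPM in PBS lungs. The long-term libraries lay above all others, while 1 short-term library fell inside the PBS range. C4b gave a log2 fold change of 0.75 ± 0.13 in long-term against PBS lungs (adjusted p = 0.00469). In short-term against PBS lungs it was 0.28 ± 0.13 (95% interval -0.01 to 0.58, adjusted p = 0.0944). This second difference was called under median-ratio scaling (0.63, adjusted p = 0.00267), quantile normalization (0.49, adjusted p = 0.00506), correction for length and GC content (0.85, adjusted p = 0.000177), and without short-term replicate 1 (adjusted p = 0.0225).

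In long-term against short-term lungs C4b was the 1 gene of the 9 that was higher, by 0.47 ± 0.13 (log2, adjusted p = 0.0165), where the median of all tested genes was 0.41. The call was lost under median-ratio scaling (0.08) and quantile normalization (0.30, adjusted p = 0.0519), and the direction reversed with the length and GC correction (-0.08). It was also lost without long-term replicate 1 (adjusted p = 0.0623) or replicate 2 (adjusted p = 0.0599). C4b has a near-identical neighbour, C4a, between which reads can be split. C4a had 3.39, 2.38 and 1.41 TPM in long-term lungs and 0.54, 1.44 and 0.71 TPM in short-term lungs, against 1.63, 1.38 and 1.62 TPM in PBS lungs, so C4b held most of the TPM assigned to the pair.

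C2 (gene 12263, chromosome 17, 34862602 to 34882100), the protease that joins C4, had no called difference. It had 21.9, 20.19 and 22.98 TPM in long-term lungs and 13.19, 22.57 and 21.15 TPM in short-term lungs, against 20.21, 21.31 and 16.91 TPM in PBS lungs. All 3 groups overlapped, and short-term replicate 1 was the lowest library. The log2 fold change was 0.15 in long-term against PBS lungs (95% interval -0.28 to 0.58, adjusted p = 0.772) and -0.06 in short-term against PBS lungs (-0.49 to 0.36, adjusted p = 0.791). The sign in short-term lungs was positive under median-ratio scaling (0.27), quantile normalization (0.31) and correction for length and GC content (0.08). C2 was not called in any alternative that was run.

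C3 and Cfb, the pair at the centre of the alternative pathway, rose in both PM2.5 groups and most in the short-term group. C3 (gene 12266, chromosome 17, 57203967 to 57228136) is the component on which all pathways converge. Its promoter window, chr17:57228087-57228386 on the minus strand of GRCm38.p6 (RefSeq), is shown for comparison with those of C1q, with motif matches in capitals.
C3: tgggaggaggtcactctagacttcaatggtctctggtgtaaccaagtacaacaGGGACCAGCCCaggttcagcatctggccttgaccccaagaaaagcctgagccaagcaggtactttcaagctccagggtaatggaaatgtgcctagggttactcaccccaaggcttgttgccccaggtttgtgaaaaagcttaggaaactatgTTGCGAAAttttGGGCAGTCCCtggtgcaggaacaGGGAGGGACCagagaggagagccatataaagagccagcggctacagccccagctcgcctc
It holds 3 kappa-B cores, where C1qb and C1qc have 1 each, and 1 C/EBP core. No PU.1, AP-1 or ISRE letters were found in it. Of the receptor genes, C3ar1 has 1 kappa-B and 1 AP-1 match in its window and C5ar1 has none of the 5 motifs.

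C3 had 572.17, 554.28 and 536.97 TPM in long-term lungs and 884.42, 1080.02 and 909.79 TPM in short-term lungs, against 258.68, 268.92 and 268.88 TPM in PBS lungs. The 3 groups were wholly separate, with PBS lowest and short-term highest. Group means were 554.5 ± 17.6, 958.1 ± 106 and 265.5 ± 5.90 TPM in the same order (SD, n = 3 each). The log2 fold change of C3 was 1.06 ± 0.10 in long-term against PBS lungs (adjusted p = 0.00018). In short-term against PBS lungs it was 1.84 ± 0.10 (adjusted p = 3.58e-06), and 2.37 after the length and GC correction. Long-term lungs were lower than short-term lungs by a log2 difference of -0.78 ± 0.10 (adjusted p = 0.000526), and -1.34 after the correction.

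Cfb (gene 14962, chromosome 17, 34856374 to 34862514), the protease of the alternative pathway, had the largest increase among the 9 genes in short-term lungs. It had 98.28, 65.7 and 57.63 TPM in long-term lungs and 151.72, 182.23 and 149.43 TPM in short-term lungs, against 24.94, 33.19 and 34.55 TPM in PBS lungs. The groups did not overlap, though the long-term libraries were spread widely, with replicate 1 well above the others. Cfb gave log2 fold changes of 1.21 ± 0.20 in long-term against PBS lungs (adjusted p = 0.00306) and 2.35 ± 0.20 in short-term against PBS lungs (adjusted p = 4.25e-05). Long-term minus short-term was -1.15 ± 0.20 (adjusted p = 0.00191), and -1.44 after the length and GC correction. The calls of C3 and Cfb held in each of the 3 comparisons under every alternative and without any 1 library.

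Cfb and C2 are neighbours in the class III region of the major histocompatibility complex, with 87 bases between them, and they arose by duplication. Their transcripts changed unequally. Cfb over C2 was 4.49, 3.25 and 2.51 in long-term lungs and 11.5, 8.07 and 7.07 in short-term lungs, against 1.23, 1.56 and 2.04 in PBS lungs. The groups did not overlap, and each pair of groups gave an exact two-sided permutation p of 0.1, which is the smallest that 3 against 3 allows (0.18 after adjustment over 18 such ratio tests). Of the genes between C4a and Cfb, Nelfe, Skiv2l, Dxo and Stk19 had log2 fold changes of 0.15 to 0.34 in long-term against PBS lungs, with no call. In short-term against PBS lungs Stk19 alone of the 4 was called (0.65, adjusted p = 0.00362), where 11.7% of all tested genes were higher. In long-term against short-term lungs Skiv2l alone was called (0.38, adjusted p = 0.016), where 43.4% of all tested genes were higher. Its value was below the median of 0.41 over all tested genes.

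**Figure D2:**
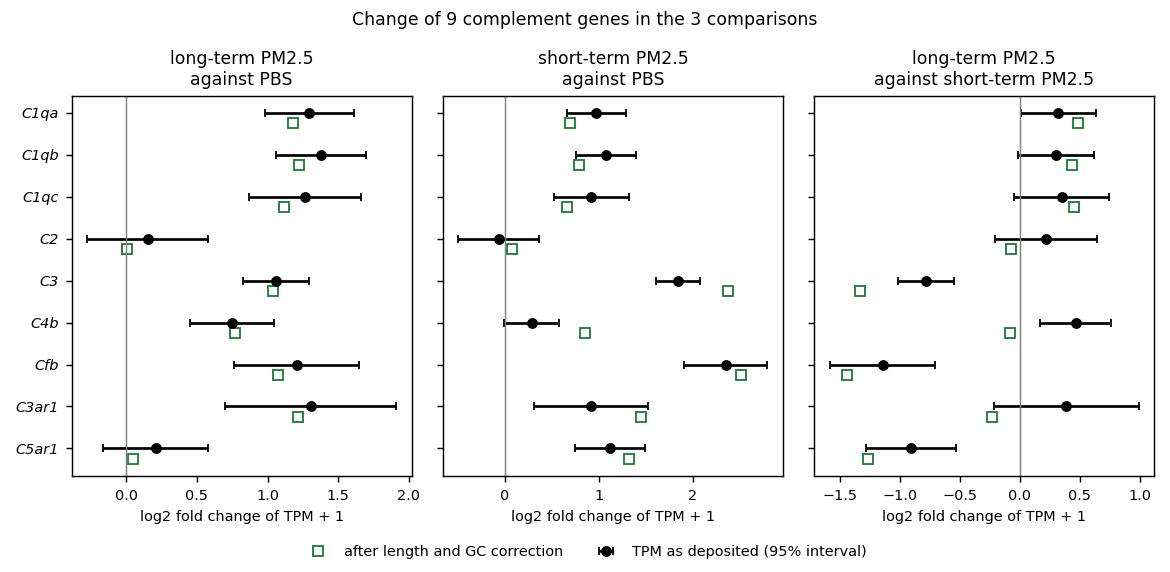
Log2 fold change of each of the 9 genes with its 95% interval from limma (filled circles), and its value after the length and GC correction (open squares), for long-term PM2.5 against PBS, short-term PM2.5 against PBS and long-term against short-term PM2.5. C3, Cfb and C5ar1 lie to the left of 0 in the third comparison on both scales, C2 spans 0 in all 3, and the square of C4b moves across 0 in the third.

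The receptors differed from each other in which group was high. C5ar1 (gene 12273, chromosome 7, 16246743 to 16259540), the receptor of the C5 fragment that draws neutrophils, had 5.57, 4.57 and 6.47 TPM in long-term lungs and 10.04, 11.94 and 11.68 TPM in short-term lungs, against 3.92, 4.71 and 5.31 TPM in PBS lungs. Short-term libraries lay above all others, and long-term and PBS libraries overlapped. The log2 fold change of C5ar1 was 1.12 ± 0.17 in short-term against PBS lungs (adjusted p = 0.000807). It was 0.21 in long-term against PBS lungs (95% interval -0.16 to 0.58, adjusted p = 0.587), and -0.91 ± 0.17 in long-term against short-term lungs (adjusted p = 0.00256). This last difference was -1.27 after the length and GC correction and -1.47 under quantile normalization.

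C3ar1 (gene 12267, chromosome 6, 122847140 to 122856157), the receptor of the small C3 fragment, was the least abundant of the 9. It had 5.3, 2.71 and 2.12 TPM in long-term lungs and 1.6, 3.41 and 1.84 TPM in short-term lungs, against 0.46, 0.79 and 0.85 TPM in PBS lungs. All PM2.5 libraries were above all PBS libraries, and the PM2.5 groups overlapped each other. On the log2(TPM + 1) scale, which understates changes of such low genes, the fold change was 1.31 ± 0.27 in long-term against PBS lungs (adjusted p = 0.011) and 0.92 ± 0.27 in short-term against PBS lungs (adjusted p = 0.018). With a pseudocount of 0.1 in place of 1 these became 2.05 and 1.54, and after the length and GC correction the short-term value was 1.45. Both calls were lost without PBS replicate 1 (adjusted p = 0.0577 and 0.0678). C3ar1 passed the filter only through lungs given PM2.5, so its p-values against PBS are no separate support for a higher level there. Long-term minus short-term was 0.39 (95% interval -0.22 to 0.99, adjusted p = 0.248), and -0.23 after the length and GC correction.

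Ratios between the genes, taken library by library, show where the balance of the pathway transcripts lay. C3 over the mean of the C1q chains was 2.68, 3.03 and 3.67 in long-term lungs and 5.96, 8.57 and 5.85 in short-term lungs, against 3.83, 3.94 and 3.37 in PBS lungs. Short-term lungs were thus clear of both other groups, which overlapped. The C1q transcripts (1040 to 1203 bases) are far shorter than that of C3, so the length trend touches this ratio. No ratio was computed on values corrected for length. C3 and C4b have transcripts of similar length (5136 and 5379 bases), so their ratio is little touched by the length trend. C3 over C4b was 7.29, 7.12 and 7.76 in long-term lungs and 18.5, 19.2 and 15.4 in short-term lungs, against 6.69, 6.05 and 5.35 in PBS lungs. The exact permutation p was 0.1 for each pair of groups in this ratio, the smallest possible. C5ar1 over C3ar1 averaged 1.93 ± 1.02 in long-term lungs and 5.38 ± 1.62 in short-term lungs, against 6.91 ± 1.40 in PBS lungs (SD, n = 3 each). The long-term libraries were below all others in it, and short-term and PBS libraries overlapped.

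**Figure D3:**
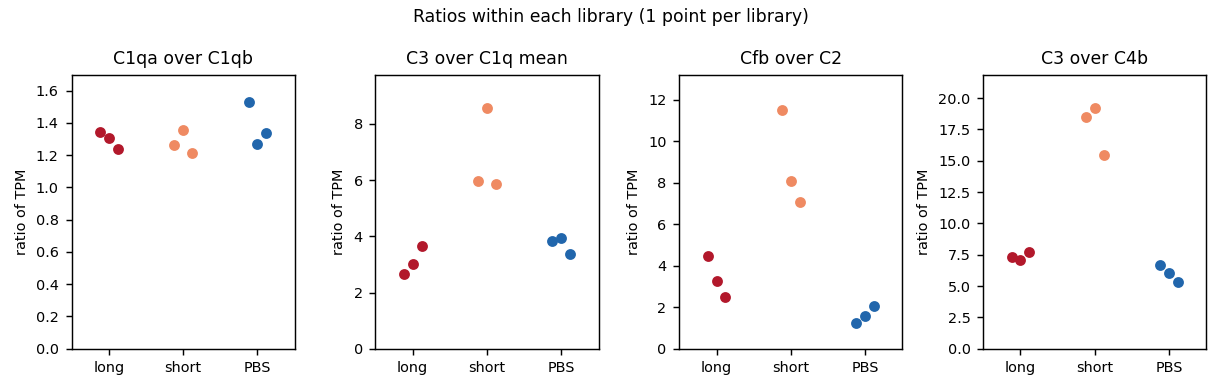
TPM ratios C1qa over C1qb, C3 over the mean of the C1q chains, Cfb over C2 and C3 over C4b, with 1 point for each library of the long-term PM2.5, short-term PM2.5 and PBS groups from left to right. C1qa over C1qb overlaps in all groups, and the other 3 ratios are highest in the 3 short-term libraries.

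Markers of neutrophils and macrophages, cells known to carry several of these genes, were read beside them. In the list of 12 neutrophil markers, the summed level was 499 to 814 TPM in long-term lungs and 1080 to 1614 TPM in short-term lungs, against 380 to 623 TPM in PBS lungs. By the same test 10 of the 12 were higher in short-term than in PBS lungs (11.7% of all tested genes), 1 was higher in long-term than in PBS lungs (9.51% of all), and 8 were lower in long-term than in short-term lungs (7.08% of all). The 1 higher in long-term lungs was Ltf, with 212.58, 140.75 and 216.8 TPM there, against 10.7, 17.21 and 38.07 TPM in PBS lungs. The long-term sums above include Ltf. S100a9, which encodes an abundant neutrophil protein, had 226.69, 142.93 and 165.62 TPM in long-term and 469.47, 674.24 and 496.94 TPM in short-term lungs, against 163.96, 165.02 and 269.78 TPM in PBS lungs. Short-term lungs were highest, as they were for C5ar1, and the part of neutrophils in the C5ar1 result was not tested.

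Of 12 markers of interstitial and monocyte-derived macrophages, the cells known to make much of tissue C1q, 4 were higher in long-term than in PBS lungs and 4 in short-term than in PBS lungs, where 9.51% and 11.7% of all tested genes were. Their summed level was 521 to 736 TPM in long-term lungs and 379 to 589 TPM in short-term lungs, against 295.5 to 323.5 TPM in PBS lungs, and none of the 12 was at 0. Cd68, a lysosomal protein of macrophages, had 398.8, 353.49 and 267.06 TPM in long-term and 176.56, 217.81 and 203.69 TPM in short-term lungs, against 79.98, 100.91 and 82.55 TPM in PBS lungs. Csf1r, the receptor for the macrophage growth factor, had log2 fold changes of 0.42 in long-term lungs (adjusted p = 0.0925) and -0.28 in short-term lungs (adjusted p = 0.117), each against PBS. Of 10 alveolar macrophage markers, 6 were higher in long-term than in PBS lungs, where 9.51% of all tested genes were. In short-term against PBS lungs 4 of the 10 were lower, close to the share over all tested genes (40.3%). Their sums were 1411 to 1742 TPM in long-term and 465 to 654 TPM in short-term lungs, against 771 to 1010 TPM in PBS lungs. The part of these cells in the C1q and C3ar1 values was not tested.

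Liver transcripts were near 0. Alb stayed at or below 0.34 TPM in long-term and 0.23 TPM in short-term lungs, against at most 0.63 TPM in PBS lungs, Apoa1 was at most 0.49 TPM in any library, and Fgb is listed at 0 in all 9. The summed level of 10 hepatocyte markers was 11.3 to 12.2 TPM in long-term and 4.80 to 7.71 TPM in short-term lungs, against 8.64 to 12.9 TPM in PBS lungs, well under the level of C3. Only 4 of the 10 passed the filter. In long-term against PBS lungs 2 of these 4 were higher (Fga and Ahsg, at most 3.19 TPM), where 9.51% of all tested genes were. In short-term against PBS lungs 1 was higher and 2 were lower, where 11.7% and 40.3% of all tested genes were. Fga and Ahsg were below 1 TPM in every PBS library, so they passed the filter only through lungs given PM2.5.

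Each gene was also set beside the tested genes whose pattern over the 9 libraries was most like it, by the root mean square difference of log2 values centred on each gene's mean. Nearest to C1q were Egr2 (0.12), a transcription factor, Klk13 (0.15) and Acp5 (0.19), the acid phosphatase of osteoclasts and some macrophages. C1q itself has a root mean square deviation of 0.58. Nearest to C3 (deviation 0.76) were Rgs16 (0.10), Tuba1c (0.14) and Cd63 (0.15). Nearest to Cfb (deviation 0.99) were Ly6i (0.16), Arg2 (0.18), a mitochondrial arginase, and again Tuba1c (0.21). C4b was nearest to Mfsd7a, Muc1 and Trf (0.10 each), C2 to Nit2 (0.06), Zmat3 (0.08) and Ppid (0.08), C3ar1 to Apobec1, Rrm2 and Fcgr3 (0.15 to 0.16), and C5ar1 to Tmem208 (0.12), Cav3 (0.15) and Phox2a (0.16). These likenesses hold on the log2(TPM + 1) scale, which understates changes of low genes. Rgs16 and Phox2a were below 1 TPM in every PBS library. In short-term against PBS lungs their ratios of mean TPM were 6.56 and 37.4, against 3.61 for C3 and 2.42 for C5ar1.

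The rest of the complement system was examined through 44 other genes, all present in the table, of which 31 passed the filter. In long-term against PBS lungs 10 were higher and 1 was lower, in short-term against PBS lungs 6 were higher and 6 lower, and in long-term against short-term lungs 11 were higher and 1 lower. Over all tested genes 9.51% were higher and 1.72% lower in the first comparison, 11.7% and 40.3% in the second, and 43.4% and 7.08% in the third. The shares of the 31 genes called lower in the second and higher in the third were thus below those of all tested genes. The split moved with the scaling where short-term lungs were involved. In short-term against PBS lungs it was 12 higher and 2 lower under median-ratio scaling, 11 and 3 under quantile normalization, and 12 and 7 with the length and GC correction. Between long-term and short-term lungs the split was 8 and 3, 8 and 5, and 8 and 5 under the same settings. The balance over all called genes moved with the scaling too, by the shares given in the closing section. Whether these splits set the complement genes apart from the rest was not tested. Colec11, Cfi and Cd55b passed the filter while below 1 TPM in all libraries of a group. Without them, of 28 genes, 8 were higher and 1 lower in the first comparison, 6 and 5 in the second, and 9 and 1 in the third. Median log2 fold changes over the 28 were 0.43, -0.07 and 0.26, against 0.03, -0.34 and 0.41 over all tested genes. The count of 11 called in long-term against PBS lungs fell to 3 without long-term replicate 1 or 2, to 7 without long-term replicate 3 and to 6 without any 1 PBS library. The 12 called in long-term against short-term lungs became 6 and 7 without long-term replicates 1 and 2. In each fit without a long-term library Cfi and Cd55b no longer passed the filter and were not tested, so 2 of the calls missing there were not re-tested rather than lost.

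Among the proteases and sensors of the classical and lectin pathways, C1ra and C1rb were higher in both PM2.5 groups. C1ra, the protease that C1q activates first, had 146.31, 135.22 and 119.38 TPM in long-term and 126.34, 148.31 and 145.87 TPM in short-term lungs, against 98.99, 89.4 and 96.67 TPM in PBS lungs. Its log2 fold changes were 0.48 (adjusted p = 0.0219) in long-term and 0.55 (adjusted p = 0.00369) in short-term against PBS lungs, and those of its close copy C1rb were 0.69 and 1.00. The long-term calls of both were lost without long-term replicate 1 or 2 or some PBS libraries (all 3 for C1ra, 2 and 3 for C1rb), with adjusted p up to 0.124 for C1ra and 0.0843 for C1rb. In long-term against short-term lungs neither was called (C1ra -0.07, adjusted p = 0.625, and C1rb -0.31, adjusted p = 0.101). After the length and GC correction both were called lower there (-0.45, adjusted p = 0.00382, and -0.58, adjusted p = 0.000646). Median-ratio scaling also called both, and quantile normalization called C1rb. C1s1, the next protease in the chain, was not called (0.48, adjusted p = 0.223, in long-term and 0.07, adjusted p = 0.787, in short-term against PBS lungs). This depended on the scaling, since after the length and GC correction C1s1 was called higher in both (0.34, adjusted p = 0.0381, and 0.40, adjusted p = 0.0104), and median-ratio scaling also called it in short-term lungs. Without short-term replicate 1 the long-term difference was called too. Colec12, a scavenger receptor with a lectin domain, was lower in short-term than in PBS lungs (-1.35, and -0.46 after the length and GC correction) and higher in long-term than in short-term lungs (1.36, and 0.48 after the correction). C4a was called higher in long-term than in short-term lungs (0.83), but not under quantile normalization or after the correction (0.28), nor without long-term replicate 1 (adjusted p = 0.0603). Mbl2, the main mannose-binding lectin of plasma, is listed at 0 in all libraries.

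Cfp (properdin), which steadies the alternative enzyme and is made by white cells, rose with Cfb. It had 57.98, 38.61 and 32.23 TPM in long-term and 55.95, 43.02 and 38.51 TPM in short-term lungs, against 19.79, 20.84 and 24.23 TPM in PBS lungs. The log2 fold changes of Cfp were 0.92 (adjusted p = 0.0186) in long-term and 1.04 (adjusted p = 0.00339) in short-term against PBS lungs, the first lost without long-term replicate 1 or 2 or PBS replicate 1 or 2 (adjusted p up to 0.0853). Cfd, the protease that cuts factor B and a gene of fat cells, was not called, and its PBS libraries ran from 30.82 to 105.76 TPM.

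Of the terminal components, Hc, which encodes C5, fell in short-term lungs. Hc had 198.65, 198.82 and 148.62 TPM in long-term and 16.17, 51.96 and 31.5 TPM in short-term lungs, against 112.39, 117.33 and 138.92 TPM in PBS lungs. All short-term libraries were below all others. Its log2 fold change in short-term against PBS lungs was -2.0 (adjusted p = 0.00111), and -1.30 after the length and GC correction. In long-term against short-term lungs it was 2.55 (adjusted p = 0.000394), and 1.82 after the correction. In long-term against PBS lungs Hc was not called (0.56, adjusted p = 0.379), though all long-term libraries lay above all PBS libraries. That difference was called without short-term replicate 1, but under none of the 3 other scalings (adjusted p = 0.0513 after the correction). The short-term lungs thus had more C5ar1 and less Hc transcript than PBS lungs. C6 was higher in long-term than in short-term lungs (0.81, adjusted p = 0.00838), which no other scaling called (0.35 after the correction), and higher in long-term than in PBS lungs (0.74, adjusted p = 0.0345), a call lost on leaving out any of those 6 libraries (adjusted p up to 0.164). C7 was higher in short-term than in PBS lungs (0.61, adjusted p = 0.00462) and lower in long-term than in short-term lungs (-0.44, adjusted p = 0.0229, and -0.86 after the correction). The second call of C7 was lost without any 1 long-term library or short-term replicate 3 (adjusted p up to 0.0758). C8a, C8b and C9 had at most 0.05 TPM in any library.

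Of the receptors outside the 9 genes, the integrin chains Itgax and Itgb2, which together form a receptor for a C3 fragment, were higher in long-term lungs. Itgax had 94.63, 87.71 and 69.32 TPM in long-term and 24.36, 42.98 and 35.61 TPM in short-term lungs, against 19.91, 23.47 and 21.64 TPM in PBS lungs. Itgax gave log2 fold changes of 1.90 (adjusted p = 0.00024) in long-term against PBS lungs, 0.61 (adjusted p = 0.0266) in short-term against PBS lungs and 1.29 (adjusted p = 0.00105) in long-term against short-term lungs. After the length and GC correction Itgax gave 0.99 in short-term against PBS lungs and 0.82 in long-term against short-term lungs. The short-term call of Itgax was lost without short-term replicate 2 or 3 or PBS replicate 1 or 3 (adjusted p up to 0.0869). Itgb2 gave 1.27 (adjusted p = 0.0012), 0.19 (adjusted p = 0.385) and 1.09 (adjusted p = 0.00132) in the same comparisons. The second difference of Itgb2 was called after the correction (0.39, adjusted p = 0.0231) and under median-ratio scaling. Itgam, the partner chain more typical of neutrophils, was not called against PBS on the TPM scale as deposited (0.77, adjusted p = 0.128, in long-term and 0.53, adjusted p = 0.138, in short-term lungs). All 3 other scalings called Itgam higher in both, with values after the correction of 0.71 (adjusted p = 0.0205) and 1.09 (adjusted p = 0.00103). It was also called in both without short-term replicate 1, and in long-term lungs without short-term replicate 2. Itgax and Itgb2 had their highest values in the long-term group, whereas C5ar1 had them in the short-term group.

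Regulators that limit complement moved in both directions. Clu (clusterin), a fluid inhibitor of the membrane attack complex, rose most of the other complement genes in short-term lungs. It had 658.34, 581.16 and 725.17 TPM in long-term and 834.85, 621.72 and 674.37 TPM in short-term lungs, against 184.53, 189.39 and 200.93 TPM in PBS lungs. The log2 fold changes of Clu were 1.76 (adjusted p = 3.57e-05) in long-term and 1.87 (adjusted p = 1.49e-05) in short-term against PBS lungs. Vtn (vitronectin), another inhibitor of that complex, was lower in both (-0.68, adjusted p = 0.0175, in long-term and -0.74, adjusted p = 0.00375, in short-term against PBS lungs). The Vtn call in short-term lungs was lost under median-ratio scaling and quantile normalization, and that in long-term lungs without long-term replicate 1 or 2 or PBS replicate 1 or 3 (adjusted p up to 0.0958).

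Cfi, the protease that inactivates C3b, had 3.99, 3.46 and 3.84 TPM in long-term and 0.7, 0.8 and 0.59 TPM in short-term lungs, against 0.74, 0.72 and 0.66 TPM in PBS lungs. The long-term libraries stood alone, with log2 fold changes of 1.48 (adjusted p = 5.33e-05) against PBS and 1.49 (adjusted p = 4.49e-05) against short-term lungs. Cfi passed the filter only through its long-term libraries, so these p-values are no separate support for a higher level there. Serping1, the inhibitor of the C1 proteases, was lower in short-term than in PBS lungs (-0.54, adjusted p = 0.0137) and higher in long-term than in short-term lungs (0.50, adjusted p = 0.0195). Both Serping1 calls were lost under median-ratio scaling, and the second also without long-term replicate 1 or 2 (adjusted p up to 0.0608). Cpn1, which trims the small C3 and C5 fragments, was higher in long-term than in PBS lungs (0.65, adjusted p = 0.0408), a call lost under all 3 other scalings and without any 1 long-term or PBS library or short-term replicate 3 (adjusted p up to 0.189).

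Of the membrane regulators, Cd55, which breaks up the C3-cutting enzymes on host cells, had 53.6, 46.3 and 46.99 TPM in long-term and 8.84, 25.83 and 20.29 TPM in short-term lungs, against 29.77, 30.07 and 32.83 TPM in PBS lungs. The log2 fold change of Cd55 was 1.49 (adjusted p = 0.00353) in long-term against short-term lungs and -0.84 (adjusted p = 0.0346) in short-term against PBS lungs, the second lost under median-ratio scaling and quantile normalization and without any 1 PBS library (adjusted p up to 0.0928). The second value was -0.49 after the correction. Its close copy Cd55b, at 2.23 TPM or less, was called higher in long-term than in PBS lungs (0.76), lower in short-term than in PBS lungs (-0.42) and higher in long-term than in short-term lungs (1.18). Cd55b passed the filter only through its long-term libraries, so its calls for that group are no separate support for a higher level there. The short-term call of Cd55b against PBS was lost without short-term replicate 1 or 3 or any 1 PBS library (adjusted p up to 0.0988) and under median-ratio scaling and quantile normalization, and the long-term one under quantile normalization and the correction. Susd4, a membrane inhibitor of the C3-cutting enzymes, was called in long-term against short-term lungs (0.55, adjusted p = 0.0442), but under none of the 3 other scalings (0.23 after the correction), nor without most single libraries (any long-term or PBS library or short-term replicate 1, adjusted p up to 0.128). Cd59a, which blocks the membrane attack complex, was not called in any comparison.

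**Figure D4:**
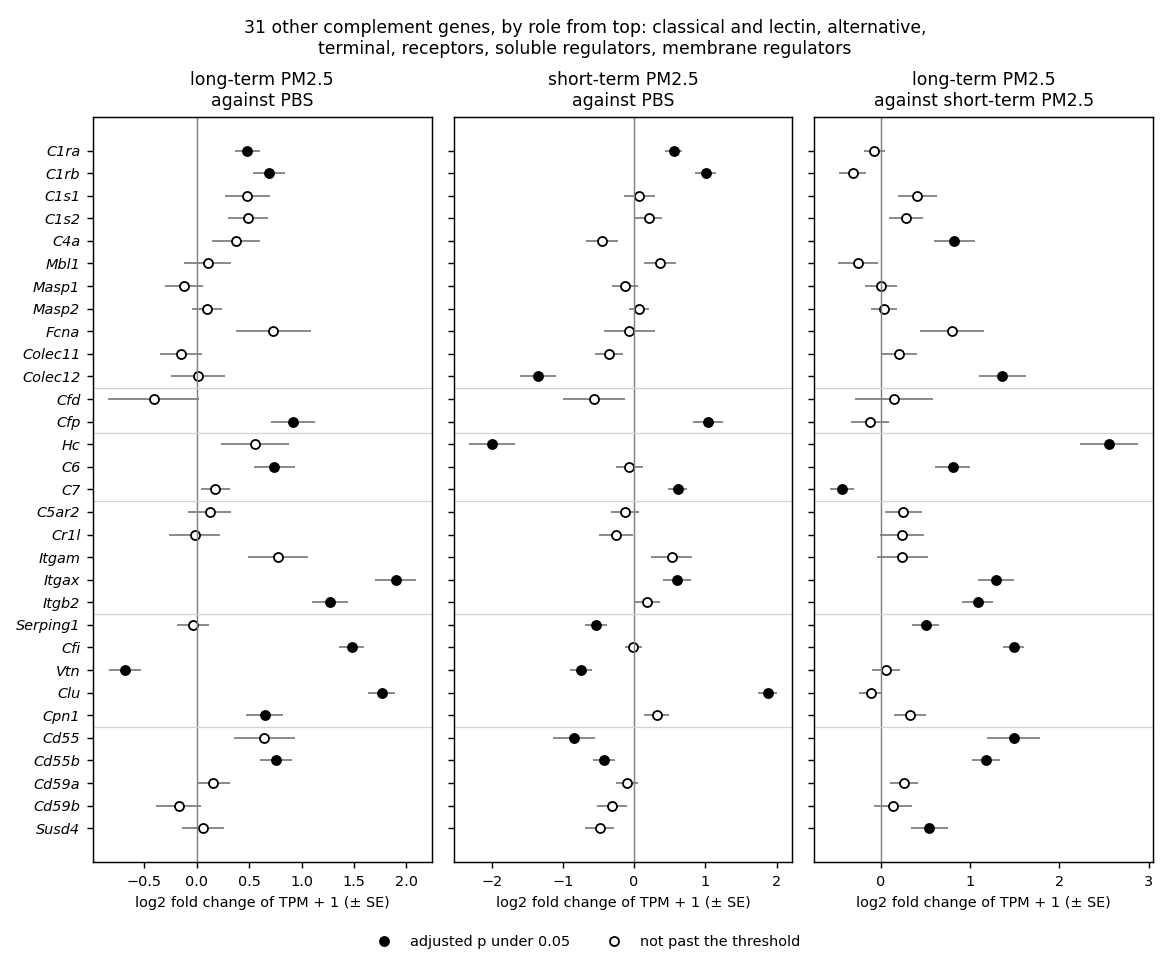
Log2 fold changes with SE of the 31 tested complement genes outside the 9, grouped by role from top to bottom, for long-term PM2.5 against PBS, short-term PM2.5 against PBS and long-term against short-term PM2.5, with filled points for an adjusted p under 0.05. Clu lies far to the right in both comparisons with PBS, Itgax and Cfi far to the right in the long-term one, and Hc and Colec12 far to the left in the short-term one. Cfi and Cd55b passed the filter only through their long-term libraries.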

How the data were processed

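Messenger RNA was taken from lung total RNA on oligo(dT) beads, and the libraries underwent DSN processing before sequencing on a BGI DNBSEQ instrument, per the labels' protocols. DSN treatment lowers abundant transcripts, which can touch abundant genes such as C3. The deposited table holds TPM values computed by the authors for 18875 genes in 9 libraries. HISAT2, Bowtie2, RSEM and DESeq2 are named without role or version in the submitters' processing notes, with build GRCm38.p6 for 8 of the 9 samples. Column sums differ by at most 1.09 TPM, so depth is unknown and no count test was run.

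The 9 genes, the gene lists and the tests were chosen with earlier results of these data known. Genes reaching 1 TPM in 3 or more libraries (13991, with 4884 left out) were fitted as log2(TPM + 1) over the 3 groups with limma 3.58.1 in R 4.3.3 (trend, 6 residual degrees of freedom). The 3 two-sided comparisons were Benjamini-Hochberg adjusted over all tested genes, with a threshold of 0.05, and the code was tested on simulated data. Ratios were compared by exact permutation tests in scipy 1.17.1, and figures were drawn with matplotlib 3.10.9 under Python 3.11.15. The correction for transcript length and GC content used natural splines (5 degrees of freedom each) fitted to each library, with lengths from GENCODE vM21. It could not reach 152 tested genes, and it can remove real differences between long and short genes. Other alternatives were a pseudocount of 0.1, no filter, median-ratio scaling, a filter at a mean of 5 TPM, quantile normalization, a replicate block, the 2 compared groups alone, and each library left out. Named are the 9 genes, the 44 other complement genes past the threshold or standing as contrasts, the 3 genes nearest in pattern, and cell markers. Csf1r, S100a9, Ltf, Cd68 and contrasts such as C1s1, Itgam, Cd59a and Cfd were named with their values in view. Another complement gene is not reported here.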

Additional observations from a re-analysis of the deposited data

Results flagged for a closer look

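The effects of the PM2.5 groups, each relative to the same PBS libraries, differed by the test of long-term against short-term lungs for 4 of the 9 genes, 1 higher and 3 lower, where 43.4% of all tested genes were higher and 7.08% lower. The log2 differences, long-term minus short-term, were -0.78 for C3, -1.15 for Cfb, -0.91 for C5ar1 and 0.47 for C4b. The first 3 kept their call under every alternative, and that of C4b did not.

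Among the other complement genes, positive differences were 2.55 for Hc, 1.49 for Cfi, 1.49 for Cd55, 1.36 for Colec12, 1.29 for Itgax, 1.18 for Cd55b, 1.09 for Itgb2, 0.83 for C4a, 0.81 for C6, 0.55 for Susd4 and 0.50 for Serping1. C7 had a negative one of -0.44. The calls of C4a, C6, Serping1 and Susd4 were lost under at least 1 of the 3 other scalings. Cfi and Cd55b passed the filter only through their long-term libraries, so their calls are no separate support. Over all tested genes the median difference was 0.41.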

How the results depend on the processing

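The counts of 7 genes higher in each PM2.5 group than in PBS, and of 3 lower in long-term than in short-term lungs, stayed within 1.5 times under every alternative. With each library left out in turn, 6 to 7 were higher in long-term and 6 to 8 in short-term against PBS lungs. The 1 gene higher in long-term than in short-term lungs became 0 under median-ratio scaling, 3 (C1qa, C1qb and C1qc) with the length and GC correction, 2 with that correction and the replicate block, 0 with the correction when short-term library 1 was left out (an alternative chosen after seeing the data), and 0 to 3 with 1 library left out. The difference of C4b in that comparison reversed to -0.0801 with the length and GC correction, -0.0801 with the replicate block added and -0.0612 with the correction and short-term library 1 left out. Over all tested genes, 1571 were called in long-term against PBS lungs. This became 920 at a mean TPM of at least 5, 2583 under quantile normalization, 3309 with the length and GC correction, 2803 with that and the replicate block, 3881 with the 2 groups alone, 5003 with the correction and short-term library 1 left out, and 779 to 3155 with 1 library left out. In long-term against short-term lungs 7061 became 4469 to 9149 with 1 library left out. Of the 31 other complement genes tested, 12 were called in short-term against PBS lungs, 6 higher and 6 lower. Over all tested genes 11.7% were higher and 40.3% lower in that comparison. With the length and GC correction 19 of the 31 were called, a count given without the share over all tested genes in that setting. The share of called genes that were lower was 15.3%, 77.5% and 14% in long-term against PBS, short-term against PBS and long-term against short-term lungs. It was 25.9%, 53.2% and 42.3% under median-ratio scaling, 44.8%, 51.9% and 50.2% under quantile normalization, and 48.4%, 52.4% and 53.4% with the correction.

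Same-numbered libraries of different groups deviated together with correlations from -0.29 to 0.26 and 1 of 9 libraries correlated best with its own number, so the numbers were not taken as pairs. With the replicate block 1125, 6376 and 6111 genes were called in the 3 comparisons, and the counts of the 9 genes did not change. Depth is unknown, so low genes such as C3ar1 carry an unmeasured counting error, and with 3 libraries a group small differences such as that of C2 were not detectable. The cause of each change above was not tested. C3ar1 was not tested at a mean TPM of at least 5.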
